A study of Mus musculus with 20 samples.

Results

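The circadian clock is carried in nearly every liver cell by a small set of genes that switch each other on and off once a day. Expression of 10 of these genes, Arntl, Clock, Npas2, Per1, Per2, Per3, Cry1, Nr1d1, Nr1d2 and Dbp, was examined in livers of female and male mice of a pair of inbred strains. The genes were chosen by symbol from the 25444 loci of the RNA-seq count table, and all 10 had enough reads to be tested among 13704 genes. The 4 groups were 20-week old C57BL/6N (B6) females, B6 males, C3H/HeN (C3) females and C3 males, with 5 mice in each group and RNA taken from the left lateral lobe. B6 mice rarely develop spontaneous liver tumours with age and C3 mice often do. Males and females were housed in separate rooms, so that sex and room cannot be told apart.

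The clock works as a pair of interlocked loops. ARNTL, also called BMAL1, pairs with CLOCK or its relative NPAS2 and activates genes that carry an E-box, among them the Per, Cry, Nr1d1, Nr1d2 and Dbp genes. PER and CRY proteins then accumulate and block that activation. The nuclear receptors encoded by Nr1d1 and Nr1d2, known as REV-ERB alpha and beta, repress Arntl, Npas2 and Cry1 through sites called RORE, and DBP activates Per genes through the D-box. In liver this cycle times glucose, lipid, bile acid and drug metabolism. The mice were killed during a window of several hours in the morning under an equal light and dark cycle, and the hour at which each liver was taken is not given in the sources used here. A difference in clock gene level between groups and a difference in sampling time therefore cannot be told apart, and these data hold no time series.

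Letters of the kinds through which the loops act can be looked for in the promoters of the members. RefSeq promoters (assembly GRCm38.p6, from 250 bases before to 50 bases after the annotated start) were given for 9 of the 10 genes, as 13 promoters. They were searched on both strands for the E-box CACGTG, the D-box TTATGNAA and the RORE core TNGGTCA, and a match describes letters only, not binding. The windows of 30 bases that follow show matches in capitals, on the strand of the gene, for genes whose levels are described afterwards. Whether these letters act in these livers was not tested.
Cry1 E-box, chr10:85185097-85185126, minus strand: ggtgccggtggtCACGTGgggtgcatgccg
Per1 E-box, chr11:69098771-69098800, plus strand: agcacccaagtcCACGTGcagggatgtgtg
Per1 D-box, chr11:69098914-69098943, plus strand: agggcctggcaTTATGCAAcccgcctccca
Per3 D-box, chr4:151044852-151044881, minus strand: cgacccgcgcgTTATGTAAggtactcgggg
Per3 D-box, chr4:151044805-151044834, minus strand: cccgcccgcggTTATGTAAcccccgccgtg
Arntl RORE core, chr7:113207530-113207559, plus strand: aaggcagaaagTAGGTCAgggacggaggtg

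The E-box was found in promoters of 8.09% of 27025 genes and of 2 of the 9 members, Cry1 and Per1. The D-box stood in 3.99% of genes and in 2 members, Per1 and Per3, and Per3 carried it at 2 places on the same strand, 205 and 158 bases before the start. The shorter RORE core, searched here with any base after its first T, matched in 12.4% of genes and in 2 members, Arntl and Per3. So loose a pattern also takes in letters that need not be a RORE. In Per3 it matched only as TTGGTCA on the opposite strand. In Arntl it matched as TTGGTCA and TCGGTCA before the start, and as TAGGTCA in the window shown. The windows of Clock, Npas2, Nr1d1, Nr1d2 and Dbp held none of the 3 motifs, and Per2 had no entry.

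Levels between genes were compared as TPM, a transcript measure that takes gene length into account. Averaged over the 20 livers, Arntl had the highest mean at 34.6 ± 6.62 TPM (SD, n = 20), followed by Clock at 28.8 ± 5.07, Nr1d2 at 28.2 ± 8.77 and Nr1d1 at 25.2 ± 11 TPM. These 4 neighbours differed by less than their spread over livers, and their order was not the same in every group. In C3 females Nr1d2 (35.2 TPM) and Nr1d1 (32.9 TPM) had higher means than Arntl (30.5 TPM), while in B6 males Arntl stood at 35.9 TPM and Nr1d1 at 11.5 TPM. Cry1 at 7.65 ± 2.51, Dbp at 7.0 ± 5.0, Per2 at 4.31 ± 2.31 and Npas2 at 3.36 ± 1.24 TPM came next, again with overlapping spreads, and Per3 at 1.93 ± 1.14 and Per1 at 1.39 ± 1.07 TPM were the lowest. The members also differed in their range over livers. Clock varied 1.69-fold and Arntl 2.05-fold between the lowest and the highest liver. Nr1d1 varied 14.1-fold, from 3.67 to 51.6 TPM, and Dbp varied 17.5-fold, from 1.01 to 17.7 TPM. All other values are CPM, read counts scaled to a common library size. Read counts behind them ran from 26 for Per1 in its lowest library to 6447 for Clock in its highest, out of library totals between 27370921 and 46835745 reads.

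Differences between groups were tested with the edgeR quasi-likelihood test with the sequencing pool as a covariate, with Benjamini-Hochberg adjustment over all 13704 genes. A gene passed with an adjusted p below 0.001 together with a log2 fold change beyond 0.5 in either direction. Females were compared with males in each strain, and C3 with B6 in each sex. Because these comparisons share groups, they are not independent of each other.

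**Figure D1:**
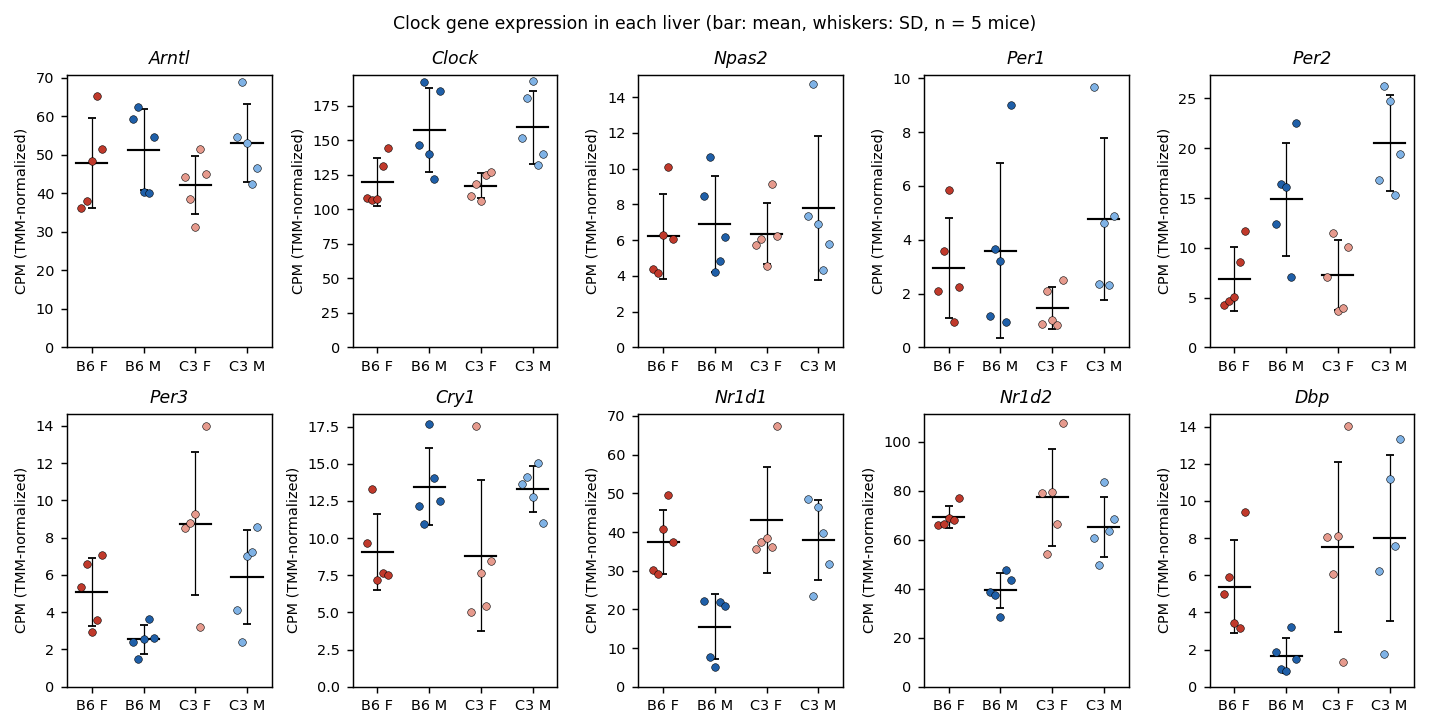
Expression of the 10 clock genes in each of the 20 livers, as CPM on a linear axis that starts at 0. Each point is 1 mouse, the bar is the group mean and the whiskers are the SD (n = 5). Per2 in C3 females (3.65 to 11.5 CPM) lies below C3 males (15.3 to 26.3 CPM), and Nr1d2 in B6 males (28.7 to 47.8 CPM) lies below B6 females (66.2 to 76.9 CPM).

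Between the sexes, 1 of the 10 members passed in B6, beside 6.34% of all genes tested. This was Nr1d2, which was 1.76-fold higher in females. In C3 the edgeR test passed 0 of 10, beside 6.9% of all genes. An unadjusted p under 0.05 was found for 5 members, DESeq2 called 2 and limma called 0. The shares of all genes by these measures are not given, here or below, so such counts cannot be called particular to clock genes. When the sex difference was averaged over both strains, 3 of 10 members passed, beside 9.62% of all genes: Per2 and Cry1 were lower and Nr1d2 was higher in females. The members did not move one way, and the median of their log2 fold changes came to -0.13 in B6 and -0.20 in C3, beside 0.00 and 0.01 over all genes. By an adjusted p under 0.05 alone, 7 members differed between the sexes in B6, beside 34.6% of all genes, and 4 in C3, beside 40%.

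Per2, which encodes a repressor of the CLOCK and ARNTL pair, showed the largest sex difference among the members that passed. In B6 it was measured at 4.27, 4.70, 5.09, 8.56 and 11.7 CPM in the 5 females and at 12.4, 16.4, 16.1, 7.11 and 22.5 CPM in the 5 males. In C3 it was measured at 7.11, 11.5, 3.65, 3.96 and 10.1 CPM in females and at 16.8, 26.3, 24.8, 15.3 and 19.4 CPM in males. All C3 males lay above all C3 females, whereas in B6 the 7.11 CPM of 1 male fell within the female range. The averaged log2 fold change was -1.28 ± 0.21 (SE, adjusted p = 7.7e-05 in edgeR), so that Per2 was 2.43-fold lower in females. Within the 3 sequencing pools the averaged log2 difference was -1.47, -1.30 and -1.24. Pool 2 held only 1 liver of each group other than C3 males, so here and below its sex difference in B6 sets 1 mouse against 1. Leaving out any 1 of the 20 livers kept Per2 past the threshold, with a log2 fold change between -1.47 and -1.18 and an adjusted p of at most 3.0e-04. In each strain alone the values were -1.15 ± 0.30 (adjusted p = 0.0061) in B6 and -1.41 ± 0.30 (adjusted p = 0.0016) in C3, which do not reach the threshold of 0.001. The interaction of sex and strain was -0.26 ± 0.42 (adjusted p = 0.82). The Per2 locus in the count table is chr1:93312559-93355905 of mm9, minus strand.

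Cry1 (chr10:84594445-84647799 of mm9, minus strand) encodes the second kind of repressor and carries the E-box shown above. B6 females had 9.70, 13.3, 7.15, 7.67 and 7.49 CPM and B6 males 12.2, 10.9, 17.7, 14 and 12.5 CPM. C3 females had 5.06, 17.5, 7.64, 5.44 and 8.44 CPM and C3 males 13.6, 14.1, 12.8, 15.0 and 11 CPM. A single C3 female, replicate 2, was above every C3 male, and the other 4 C3 females were below every C3 male. In B6 the highest female overlapped the males. Averaged over strains, Cry1 was 1.61-fold lower in females (log2 fold change -0.69 ± 0.14 SE, adjusted p = 5.1e-04), with -0.80, -1.01 and -0.42 within the 3 pools. This call was close to the threshold: it held in 9 of the 20 fits that left out 1 liver, and was lost without B6 F replicates 1, 3, 4 or 5, B6 M 3 or 5, C3 F 1 or 4, or C3 M 1, 2 or 3 (adjusted p between 0.0010 and 0.0016). It was also lost in the limma fits on log2(TPM + 1) and log2(TPM + 0.1) and without the pool term. Without C3 F replicate 2 the averaged log2 fold change was -0.81 (adjusted p = 2.3e-06), and the value within C3 passed the threshold at -1.05 (adjusted p = 2.7e-05). The same omission took Per2 past the threshold in both strains, at -1.16 in B6 (adjusted p = 9.0e-04) and -1.77 in C3 (adjusted p = 5.0e-05). The values with all 5 C3 females were -0.59 ± 0.19 (adjusted p = 0.024) for Cry1 in B6 and -0.79 ± 0.20 (adjusted p = 0.0049) in C3.

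Per1 and Per3 belong to the same family as Per2, and their difference from Per2 was not tested. Per1, which is known to respond rapidly to hormones, lay between 0.949 and 5.83 CPM in females and between 0.962 and 8.99 CPM in males of B6. In C3 it lay between 0.841 and 2.52 CPM in females and between 2.30 and 9.67 CPM in males. These ranges overlapped between the sexes in both strains, with sex differences on the log2 scale of -0.30 ± 0.56 in B6 (adjusted p = 0.71) and -1.42 ± 0.61 in C3 (adjusted p = 0.070). The averaged value for Per1 was -0.86 ± 0.41 (adjusted p = 0.085). Within the 3 pools it was -1.14, -2.92 and -0.63 in C3, and in B6 it changed sign, with -1.93, 2.28 and 0.62. Per3, whose promoter carries the D-box at 2 places, had its higher means in females. It was measured at 5.33, 6.61, 2.93, 3.58 and 7.08 CPM in B6 females and 2.40, 1.47, 2.55, 3.65 and 2.64 CPM in B6 males. In C3 it was measured at 8.49, 8.80, 9.29, 3.18 and 14 CPM in females and 4.14, 2.42, 7.01, 7.25 and 8.57 CPM in males. The groups overlapped in both strains, and the log2 sex difference came to 1.01 ± 0.37 in B6 (adjusted p = 0.039) and 0.52 ± 0.35 in C3 (adjusted p = 0.24).

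**Figure D2:**
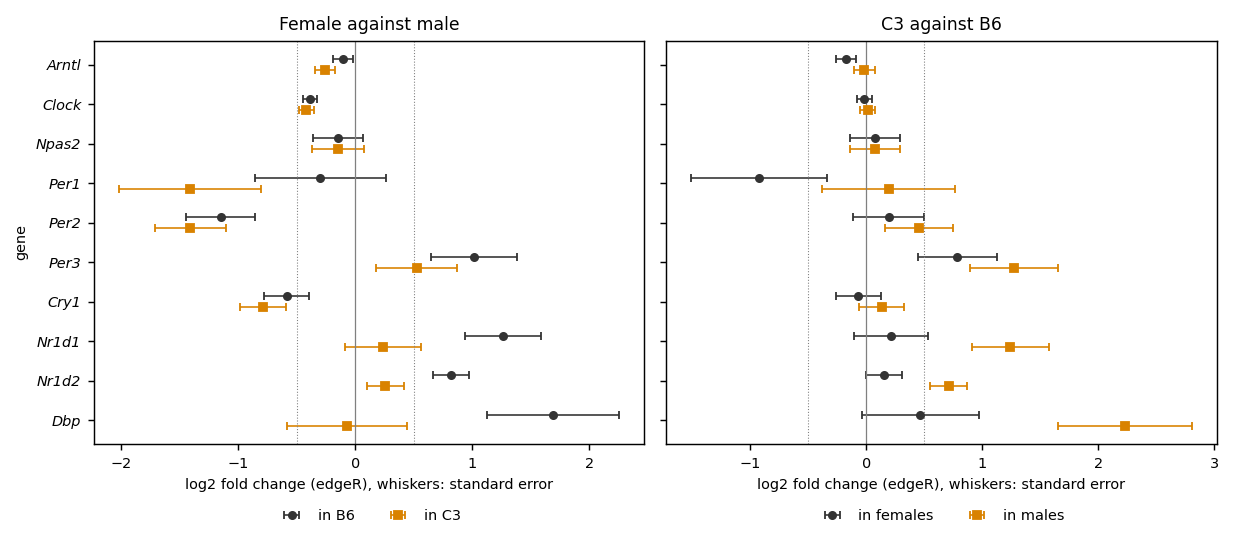
Log2 fold changes of the 10 clock genes, females against males (left, in B6 and in C3) and C3 against B6 (right, in females and in males), with whiskers for the standard error of the edgeR fit. Dotted lines mark the fold threshold of 0.5; Per2 lies left of 0 in both strains (-1.15 and -1.41) and Dbp lies at 1.69 for sex in B6 and at 2.23 for strain in males.

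Nr1d1 and Nr1d2 encode the repressors of the second loop. Nr1d2 (chr14:19036570-19071620 of mm9, minus strand) stood at 66.2, 66.5, 68.8, 68.1 and 76.9 CPM in B6 females and at 38.8, 37.5, 28.7, 47.8 and 43.7 CPM in B6 males. C3 females had 79.0, 54.1, 79.4, 66.5 and 107 CPM and C3 males 60.6, 49.7, 83.6, 63.4 and 68.6 CPM. The sexes did not overlap in B6 and overlapped in C3. The log2 fold change in B6 was 0.82 ± 0.16 (SE, adjusted p = 6.0e-04). It was 0.84, 0.83 and 0.84 within the 3 pools, where pool 2 held 1 female and 1 male of B6. Nr1d2 passed in B6 with 5 mice in each group but not when any single B6 liver other than B6 M replicate 4 was left out. In those fits the log2 fold change stayed between 0.73 and 0.85 and the adjusted p lay between 0.0011 and 0.0026. In C3 it was 0.26 ± 0.16 (adjusted p = 0.20), and the interaction was -0.56 ± 0.22 (adjusted p = 0.20), so that a difference between the strains was not shown. Averaged over strains Nr1d2 was 1.45-fold higher in females (log2 fold change 0.54 ± 0.11, adjusted p = 6.0e-04), with 0.61, 0.56 and 0.44 within the pools. The averaged call held in 6 of the 20 fits that left out 1 liver, those without B6 F replicate 4, B6 M 4, C3 F 2 or 4, or C3 M 3 or 5, and the adjusted p over all 20 ran from 1.7e-04 to 0.0016.

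Nr1d1 was measured at 30.3, 29.3, 40.7, 49.5 and 37.5 CPM in B6 females and at 22.1, 7.71, 5.00, 22.0 and 20.9 CPM in B6 males. C3 females had 35.6, 37.4, 38.6, 36.0 and 67.4 CPM and C3 males 48.5, 23.5, 46.4, 39.8 and 31.7 CPM. B6 males stood below every B6 female and below every C3 liver, 2 of them at under 8 CPM. The log2 sex difference in B6 was 1.26 ± 0.33 (adjusted p = 0.0065), above that of Nr1d2 in size but with a larger error, and it did not pass. In C3 it was 0.23 ± 0.32 (adjusted p = 0.59). Nr1d1 (chr11:98629246-98636691 of mm9, minus strand) overlaps Thra on the opposite strand, and the counting used strand.

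Dbp (chr7:52960617-52965573 of mm9, plus strand, overlapping Sphk2 on the opposite strand) encodes a transcription factor whose own transcription follows the E-box activators directly, which makes it a common readout of clock output. It had 5.00, 5.89, 3.44, 3.17 and 9.40 CPM in B6 females and 1.86, 0.979, 0.833, 3.23 and 1.47 CPM in B6 males. C3 females had 8.03, 6.05, 8.11, 1.32 and 14 CPM and C3 males 6.23, 1.79, 11.2, 7.55 and 13.3 CPM. B6 males were the lowest group, with 4 of 5 below every B6 female, while 1 female and 1 male of C3 also fell below 2 CPM. Its log2 sex difference (female against male) was 1.69 ± 0.57 in B6 (adjusted p = 0.027) and -0.07 ± 0.51 in C3 (adjusted p = 0.93), with an interaction of -1.76 ± 0.76 (adjusted p = 0.25). Read against Arntl, Dbp had a median TPM ratio of 0.239 in females and 0.0467 in males of B6, and of 0.314 in females and 0.309 in males of C3. The ratio ran from 0.0841 to 0.316 in females and from 0.0272 to 0.140 in males of B6. In C3 it ran from 0.0445 to 0.539 in females and from 0.0449 to 0.495 in males, so that all groups overlapped.

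Among the activators, Clock had the smallest errors of all members. B6 females had 108, 107, 108, 131 and 144 CPM and B6 males 147, 192, 140.1, 122 and 186 CPM. C3 females had 109.5, 119, 106, 125 and 127 CPM and C3 males 152, 180.4, 193, 132 and 140.0 CPM. The sexes did not overlap in C3, and in B6 2 of the males fell within the female range. The log2 sex difference was -0.39 ± 0.06 in B6 (adjusted p = 1.4e-04) and -0.42 ± 0.06 in C3 (adjusted p = 8.9e-05), and its average was -0.40 ± 0.05 (adjusted p = 1.1e-06). In this fit the adjusted p was therefore under 0.001 in both strains, while the size of 1.32-fold stayed under the fold threshold. For that reason Clock is not among the genes that passed. The adjusted p depended on the model: without the pool term edgeR gave 0.054 in B6 and 0.026 in C3. Limma on log2(TPM + 1) gave 0.0061 and 0.0025, and DESeq2 gave 9.1e-08 and 9.3e-09.

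Arntl had 36.3, 38.0, 48.5, 65.3 and 51.5 CPM in the females of B6 and 59.2, 62.4, 40.2, 40.0 and 54.7 CPM in the males. In C3 it had 44.3, 38.6, 31.4, 51.5 and 45.1 CPM in the females and 54.7, 68.9, 53.0, 42.4 and 46.6 CPM in the males. The 4 groups overlapped throughout. The log2 sex difference stood at -0.10 ± 0.09 in B6 (adjusted p = 0.37) and -0.26 ± 0.09 in C3 (adjusted p = 0.026). Npas2 had means of 6.22 ± 2.38 CPM (SD, n = 5) in females and 6.88 ± 2.69 CPM in males of B6. In C3 the means were 6.35 ± 1.71 CPM in females and 7.81 ± 4.03 CPM in males. Its log2 fold change between the sexes was -0.15 in both strains, with errors of 0.22 (adjusted p = 0.62).

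Between the strains, edgeR passed 0 of 10 members in females, beside 9.4% of all genes, and 0 of 10 in males, beside 9.64%. At an unadjusted p under 0.05 there was 1 member in females and 4 in males, and DESeq2 called 0 in females and 2 in males where limma called 0 in both. The 4 members in males were Per3, Nr1d1, Nr1d2 and Dbp, each with its mean higher in C3, and they also had an adjusted p under 0.05, beside 34.5% of all genes. Their log2 fold changes of C3 against B6 were 1.27 ± 0.38 for Per3 (adjusted p = 0.013), 1.24 ± 0.33 for Nr1d1 (adjusted p = 0.0069), 0.71 ± 0.16 for Nr1d2 (adjusted p = 0.0019) and 2.23 ± 0.58 for Dbp (adjusted p = 0.0056). The difference for Dbp within the 3 pools was 1.86, 2.26 and 2.16. In females the same 4 genes had 0.78 ± 0.34, 0.21 ± 0.32, 0.15 ± 0.15 and 0.47 ± 0.51, and the adjusted p ran from 0.088 to 0.65. Averaged over the sexes edgeR passed 0 of 10, beside 12.6% of all genes, with 4 at an unadjusted p under 0.05, 1 called by DESeq2 and 0 by limma. The interaction of sex and strain passed for 0 of 10, beside 0.401%, with 3 at an unadjusted p under 0.05 and 0 called by DESeq2 or limma. As for the sexes, the counts at an unadjusted p have no share of all genes beside them. Among the activators, the strain difference was -0.02 ± 0.06 in females and 0.01 ± 0.06 in males for Clock, and 0.07 ± 0.22 in both sexes for Npas2. For Arntl it was -0.17 ± 0.09 in females (adjusted p = 0.14, and 0.039 to 0.59 over the alternatives that kept all livers) and -0.02 ± 0.09 in males.

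Mice of 1 group differed from each other in an ordered way. For each gene the deviation of each liver was taken after the means of its group and pool were removed from log2 CPM, and all 45 pairs of members were correlated over the 20 livers, with p from 100000 permutations within groups and Benjamini-Hochberg adjustment over the pairs. By Pearson's r, 6 pairs had an adjusted p under 0.05, 4 positive and 2 negative. Per3 and Dbp gave r = 0.952 and Spearman's rho = 0.955 (permutation p = 1e-05, the smallest the permutations allow). In the C3 female with the highest level, replicate 5, both genes happened to have 467 reads. Arntl and Npas2 gave r = 0.871 and rho = 0.820 (adjusted permutation p = 0.0011), and Nr1d2 and Dbp gave r = 0.839 and rho = 0.862 (adjusted permutation p = 0.0031). The 2 negative pairs joined an activator with a gene of the other arm: Npas2 with Per3 (r = -0.741, rho = -0.779, adjusted permutation p = 0.015) and Arntl with Nr1d2 (r = -0.682, rho = -0.707, adjusted permutation p = 0.033). Per3 and Nr1d2 were the sixth pair, with r = 0.753 and rho = 0.812 (adjusted permutation p = 0.015).

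**Figure D3:**
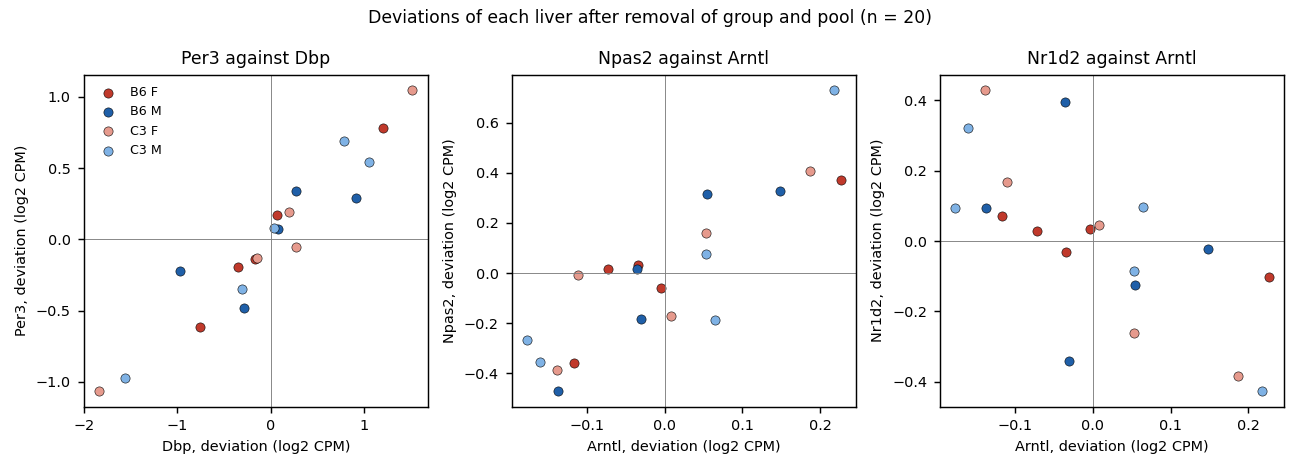
Deviations of each of the 20 livers from its group and pool mean on the log2 CPM scale, for 3 pairs of clock genes, coloured by group. Per3 rises with Dbp (r = 0.952) and Npas2 with Arntl (r = 0.871), while Nr1d2 falls with Arntl (r = -0.682).

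With the 2 livers farthest from the median of the first gene left out, r was 0.923 for Per3 and Dbp, 0.824 for Arntl and Npas2, 0.865 for Nr1d2 and Dbp, -0.680 for Npas2 and Per3, 0.671 for Per3 and Nr1d2, and -0.633 for Arntl and Nr1d2. Within the sequencing pools of 8, 5 and 7 livers, Per3 and Dbp gave 0.983, 0.996 and 0.832, and Arntl and Npas2 gave 0.955, 0.875 and 0.581. Nr1d2 and Dbp gave 0.922, 0.811 and 0.850, Per3 and Nr1d2 gave 0.924, 0.856 and 0.780, and Arntl and Nr1d2 gave -0.830, -0.685 and -0.549. For Npas2 and Per3 the values fell from -0.850 in pool 1 to -0.517 in pool 2 and -0.156 in pool 3. The number of pairs moved with single livers: it was 12 without B6 M replicate 1 and 3 without C3 F replicate 5 or C3 M replicate 2. Per2 and Cry1, the repressors that passed the sex test, gave r = 0.691 and rho = 0.477 (adjusted permutation p = 0.13 for r). All members in 1 liver share that library and its time of collection, so that these values describe how the genes moved together and not why.

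**Figure D4:**
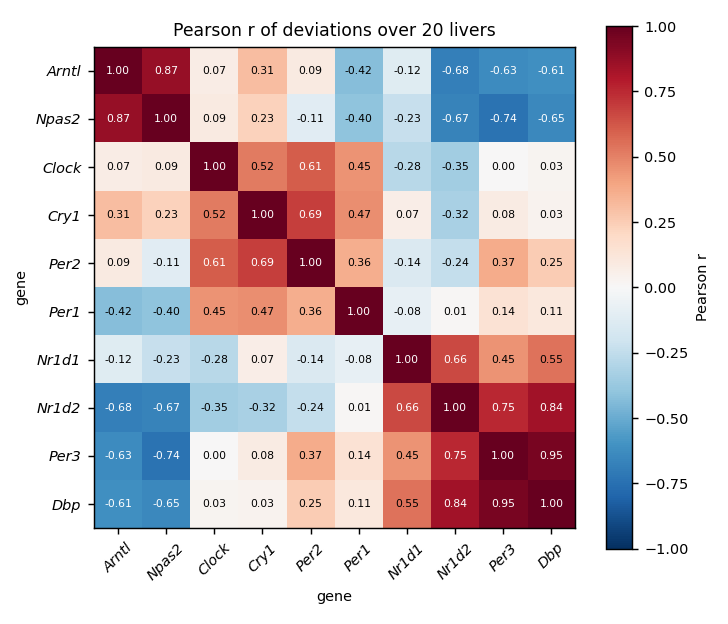
Pearson's r of the deviations from group and pool means for each pair of the 10 clock genes over 20 livers, from -1 (blue) to 1 (red). Arntl and Npas2 stand together in the upper left, and Nr1d2, Per3 and Dbp stand together in the lower right, with negative values between both blocks.

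Compared with Arntl over the same deviations, the genes outside the members with the highest r among 13694 were Ppard (0.883), a fatty acid receptor that also stands in the wider list described further on, Pdcl3 (0.867), Igfbp5 (0.836) and Igfbp6 (0.831), which encode binding proteins of insulin-like growth factors, and Apoa1bp (0.828). Those with the lowest r were Fbxo21 (-0.830), Slc27a2 (-0.814), a fatty acid transporter and acyl-CoA synthetase, Fam160a2 (-0.802), Abca9 (-0.799) and Zbtb11os1 (-0.792). These are the ends of a list ordered by r and carry no test.

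The members also differed in how far mice of 1 group lay from each other. The residual SD of log2 CPM was 1.03 for Per1 and 1.01 for Dbp, and 99.6% of the 13704 genes had a lower one. It was 0.638 for Per3, 0.617 for Nr1d1 and 0.537 for Per2, which were above 96.7%, 96.2% and 93.6% of genes. Npas2 (0.366), Cry1 (0.327) and Nr1d2 (0.275) followed. Arntl (0.146) and Clock (0.0994) were below the median of all genes, 0.164, although Arntl was above 75.6% and Clock above 44.2% of 500 genes of like level. In all, 5 of 10 members lay in the widest 10% of genes, and 8 did when each was set against 500 genes of like level. No test was made of this order.

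**Figure D5:**
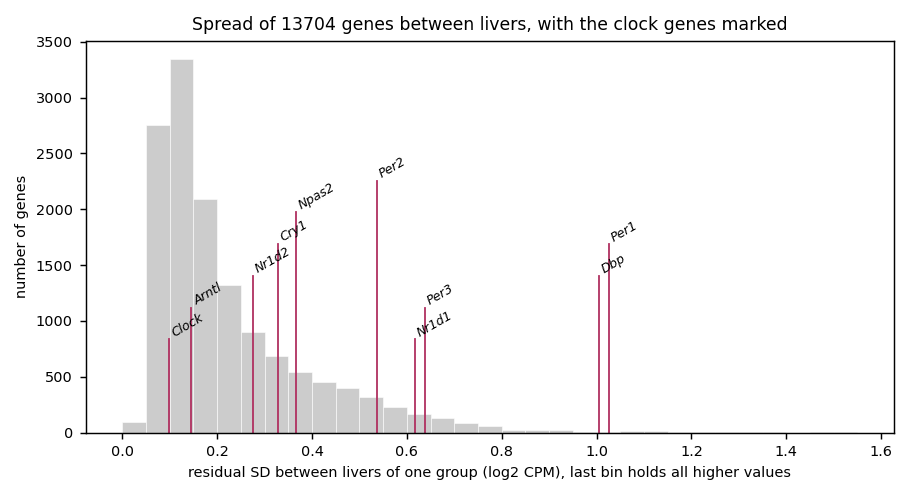
Residual SD of log2 CPM between livers of 1 group for 13704 genes (grey bars, number of genes), with the 10 clock genes as vertical lines whose height has no meaning. Clock and Arntl lie near the bulk of genes, and Per1 and Dbp lie near 1.0, far to the right of the median of 0.164.

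A wider list of 37 other clock genes and textbook clock outputs, chosen by role, was read beside the members, and 36 were tested. Between the sexes 2 passed in B6 and 4 in C3, which is 5.56% and 11.1% of the list beside 6.34% and 6.9% of all genes. Por, the reductase that supplies electrons to cytochrome P450 enzymes, was higher in females of both strains, with log2 fold changes of 0.83 ± 0.12 in B6 and 0.96 ± 0.12 in C3. Elovl3, a fatty acid elongase, was lower in females by 6.32 on the log2 scale in B6 and by 7.28 in C3. It ranged from 4.45 to 13.4 CPM in B6 females and from 534 to 1262 CPM in B6 males. In C3, Pdk4, a kinase that limits glucose oxidation, was higher in females (log2 fold change 1.63 ± 0.32, adjusted p = 8.2e-04), and Bhlhe41, a repressor that competes at the E-box, was lower (log2 fold change -2.40 ± 0.46, adjusted p = 5.9e-04). Bhlhe41 was low throughout, at 0.791 ± 0.375 CPM (SD, n = 5) in females and 0.377 ± 0.230 CPM in males of B6, and at 0.254 ± 0.103 CPM in females and 1.38 ± 0.718 CPM in males of C3.

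Between the strains 3 of the 36 passed in females and 2 in males, which is 8.33% and 5.56% of the list beside 9.4% and 9.64% of all genes. Arntl2, a relative of Arntl, had 36 to 68 reads in the libraries of B6 females and 1 to 10 in those of C3 females, with a log2 fold change of -3.65 ± 0.32. In males it had 19 to 37 reads in B6 and no more than 2 in the C3 libraries, which puts it at least 7.37-fold lower in C3 against a floor of 3 counts per library. Noct, a rhythmic gene named for its night peak, ranged from 9.70 to 71.8 CPM in B6 females and from 0.358 to 0.997 CPM in C3 females (log2 fold change -5.41 ± 0.71). Tipin was higher in C3 females by 0.82 ± 0.13, and Fbxl21, a ligase subunit that acts on CRY proteins, was lower in C3 males (log2 fold change -1.04 ± 0.21, adjusted p = 6.9e-04). For the interaction edgeR passed 0 of 36, beside 0.401%, with 8 at an unadjusted p under 0.05, 2 called by DESeq2 and 0 by limma. The shares of all genes by the last 3 measures are not given, so these counts cannot be set against all genes. By an adjusted p under 0.05 alone there were 3, Bhlhe41, Noct and Pdk4, beside 2.96% of all genes.

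Per1 also answers glucocorticoids, and a list of 14 glucocorticoid targets and immediate early genes, 13 of them tested, was read for that reason. Of the 13, 3 were higher in females in B6, beside 6.34% of all genes passing, and the same 3 in C3, beside 6.9%. They were Fkbp5, Mt1 and Mt2, chosen here after their values were seen. Averaged over strains 4 of the 13 passed, beside 9.62% of all genes: the same 3 were higher in females and Tsc22d3 was lower. The log2 fold change of Fkbp5 was 1.99 in B6 and 1.34 in C3, and that of Mt1 was 4.37 and 2.97. The summed level of the list was 1145 to 1696 CPM in females and 1356 to 2481 CPM in males of B6, and 972 to 1709 CPM in females and 1393 to 2177 CPM in males of C3. Their part in the sex difference of the clock genes was not tested.

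Whole liver was sequenced, so fewer cells of a type and less RNA per cell cannot be told apart. Hepatocyte markers (7 genes) matched the labelled tissue, and Alb made up most of their sum. In B6 they summed to 99679 to 132723 CPM in females and 80666 to 108248 CPM in males. In C3 the sums were higher, at 137922 to 166827 CPM in females and 112703 to 138584 CPM in males. Between the sexes 3 of the 7 had an adjusted p under 0.05 in B6 and 6 in C3, beside 34.6% and 40% of all genes. Summed Kupffer cell markers (6 genes) ran from 413 to 525 CPM in females and 262 to 412 CPM in males of B6, and from 276 to 414 CPM in females and 193 to 285 CPM in males of C3. Of the 6, 1, Vsig4, passed as higher in females of both strains, beside 6.34% and 6.9% of all genes. Between the strains 4 in females and 3 in males passed as lower in C3, beside 9.4% and 9.64%. Stellate cell markers (6 genes) summed to 512 to 641 CPM in females and 415 to 483 CPM in males of B6, and to 481 to 604 CPM in females and 426 to 537 CPM in males of C3. Between the strains these sums join genes that moved in opposite directions. Of the 6, 1, Rgs5, passed as higher in C3 in both sexes, beside 9.4% and 9.64% of all genes. The median log2 fold change over the stellate list, C3 against B6, was -0.38 in females and -0.22 in males. In males 5 had an adjusted p under 0.05, beside 34.5% of all genes. Endothelial markers (6 genes) summed to 365 to 467 CPM in females and 304 to 370 CPM in males of B6, and to 342 to 441 CPM in females and 310 to 382 CPM in males of C3. Of them 5 had an adjusted p under 0.05 between the sexes in each strain, beside 34.6% and 40% of all genes, with a median log2 fold change over the list of 0.27 in B6 and 0.26 in C3. Cholangiocyte markers (5 genes) summed to 22.4 to 40.4 CPM in females and 33.0 to 43.6 CPM in males of B6, and to 27.1 to 39.7 CPM in females and 21.6 to 29.4 CPM in males of C3. Of these 1, Sox9, passed as lower in females of both strains, beside 6.34% and 6.9% of all genes. The median log2 fold change over the cholangiocyte list, females against males, was 0.04 in B6 and 0.45 in C3. Lymphocyte markers (7 genes) summed to 3.10 to 5.11 CPM in B6 females and 1.41 to 4.59 in B6 males, and to 1.98 to 3.33 in C3 females and 0.696 to 1.21 in C3 males. Erythroid markers summed to at most 1.44 CPM, and Hba-a1 and Hbb-b1 were at 0 counts in every library. The part of these cell types in the clock gene differences was not tested.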

How the data were processed

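Livers of 20 mice were profiled by stranded, ribosomal RNA-depleted RNA-seq. Per the study's methods and the submitters' processing notes, the authors trimmed reads with cutadapt (1.9.1), aligned them to mm9 with STAR (2.5.1b) and counted read pairs per RefSeq gene with featureCounts of Subread (1.5.0-p1), leaving out pairs with several alignments or genes. They deposited raw counts and TPM, whose gene length is not described in the sources used here. The headers of the symbol and gene ID columns are exchanged and were read by content. Columns of all 20 livers were mapped by title.

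Here the deposited counts were normalized by TMM, filtered with filterByExpr (13704 genes) and fitted in edgeR (4.0.16, R 4.3.3) with group and pool over all 20 livers. DESeq2 (1.42.0) and limma (3.58.1) on log2(TPM + 1) were alternatives, with log2(TPM + 0.1), RLE factors, no filter, no pool, a replicate block, only the groups compared and each liver left out. Log2 CPM for deviations used a prior count of 2. The edgeR fit was tested on simulated data. Of 200 genes changed by a log2 of 1 between the sexes in B6, 188 were recovered with 0 false calls. For the interaction 154 of 200 were recovered with 1 false call. The changed genes were drawn from the better-read genes, and no other group or pool effect was simulated. Per1 and Dbp had a residual SD above 99.6% of genes, so these shares do not say how often such a change in the members would be found.

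Thresholds followed the study. Named genes were the members, wider list genes past the threshold in a pairwise comparison or the interaction, and the 5 most and 5 least like Arntl. The members and lists were chosen with earlier results of these data known. Replicates were separate mice. Precision was limited by counts in the low genes and by 5 mice per group. Promoters came from RefSeq tables of GRCm38.p6, and loci from mm9. No sequence was moved between builds.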

Additional observations from a re-analysis of the deposited data

Results flagged for a closer look

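In 3 of the 40 sets of 5 livers (10 clock genes in 4 groups) the highest liver stood apart from the other 4 by more than Dixon's 95% critical value of 0.71, and chance alone marks about 1 in 20. Cry1 was at 17.5 CPM in C3 female replicate 2, where the other C3 females were at 5.06 to 8.44 CPM, a gap of 0.729 of the range. Nr1d1 was at 67.4 CPM in C3 female replicate 5, where the others were at 35.6 to 38.6 CPM, a gap of 0.908 of the range. Nr1d2 was at 76.9 CPM in B6 female replicate 5, where the others were at 66.2 to 68.8 CPM, a gap of 0.756 of the range. The cause of these values was not tested.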

How the results depend on the processing

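Of 2000 member values under the alternatives, 1922 kept their side of the threshold, 39 lost a pass and 39 gained one. In the main fit only 1 member passed for sex in B6 and 3 for the averaged sex difference. Most of the 1922 therefore had no pass to lose, and the 1922 do not measure how stable the passes were. Part of the gains came from the looser cutoff of an adjusted p under 0.05. Of the 1922, 77 changed sign, none of them a value that had passed. With an adjusted p under 0.05 and no fold threshold, the members that passed became 7 for sex in B6, 4 for sex in C3 and 4 for strain in males. They became 7 for the averaged sex difference and 4 for the averaged strain difference. The wider list gave 17 and 16 for sex in B6 and C3, 14 and 5 for strain in females and males, and 3 for the interaction. Over all genes this cutoff passed 34.6% and 40% for sex in B6 and C3, 34.5% for strain in males and 2.96% for the interaction. The shares for the other comparisons are not given here, so their counts show nothing particular to clock genes. Without the pool term the members gave 0 for sex in B6 and 1 for the averaged sex difference, and the wider list 1 in B6 and 2 in C3. DESeq2 gave 2 members for sex in C3, 2 for strain in males and 1 for the averaged strain difference, and 2 wider list genes for the interaction. Replicate numbers do not mark the same animals. Over the comparisons the mean r between same-numbered livers ran from -0.24 to 0.22, with single pairs from -0.46 to 0.63. With the pool removed the mean r ran from -0.01 to 0.10, with single pairs from -0.20 to 0.32, so that same-numbered livers did not deviate together on average. With a replicate block the members gave 1 for sex in C3 and 1 for the averaged strain difference, the pairs fell from 6 to 2, and no other count moved by over 1.5 times. Leaving out 1 liver gave 0 to 2 members for sex in B6, 0 to 2 in C3, 0 to 1 for strain in males, 1 to 3 for the averaged sex difference and 0 to 1 for the averaged strain difference. It gave 2 to 4 wider list genes for sex in C3, 3 to 5 for strain in females and 1 to 2 in males, and 3 to 12 pairs. Spearman's rho gave 10 pairs. On log2(TPM + 1), 8 rather than 5 members lay in the widest 10% of genes. The cause of these changes was not tested. Read counts were lowest for Per1 and Dbp, at 26 and 32 reads in their lowest libraries.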

Other observations

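Tef, a relative of Dbp from the wider list that was chosen after its values were seen, had the lowest Pearson's r to Arntl among the genes of that list (-0.78 over 20 livers), with 28.6 to 49.7 CPM in B6 males and 32.7 to 65.3 CPM in C3 males. Of the members and wider list genes other than Arntl itself, Ppard and Npas2 had the highest. The TPM ratio of Nr1d2 to Per2, which sets a repressor of the second loop against one of the first, had a median of 17.0 in females and 2.88 in males of B6, and of 14 in females and 4.45 in males of C3. In C3 it was 5.93 to 27.4 in females and 2.38 to 5.22 in males, and in B6 8.26 to 19.5 in females and 2.24 to 8.46 in males, so that the sexes overlapped in B6 and not in C3. This ratio was formed after the values were seen and has no test.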
